A study of Homo sapiens with 26 samples.

Results

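The AP-1 and small MAF genes were described through the glucocorticoid receptor (GR) binding regions nearest to their starts in A549, an established human lung carcinoma line with features of alveolar epithelium. The 10 member genes were FOS, FOSL1, FOSL2, JUN, JUNB, JUND, ATF3, MAFF, MAFK and MAFG. A region of 400 bp was a member when the protein-coding gene start closest to its midpoint (GENCODE 44, hg38) belonged to one of these genes and lay within 100 kb. Of 10740 regions, 12 met this rule, with 4 at FOS, 3 at FOSL2, 2 at JUNB, 2 at MAFF and 1 at MAFK. FOSL1, JUN, JUND, ATF3 and MAFG had no member region. The rule used position alone, so no GR value chose the regions.

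GR occupancy was measured by chromatin immunoprecipitation and sequencing (ChIP-seq) to ask how NF-κB bears on where GR binds. Wild-type A549 cells carried an adenovirus with either IκBαΔN, an NF-κB inhibitor (Ad-IκBαΔN), or green fluorescent protein (Ad-GFP). After a night without serum they received for 1 h IL1B at 1 ng/ml together with budesonide at 300 nM (IL1B+Bud), budesonide alone at that dose (Bud), or neither (NS). All 6 groups had thus been infected, and no group described here was given IL1B alone. Budesonide is a synthetic glucocorticoid that activates GR, and IL1B is an inflammatory cytokine that activates NF-κB and the kinases upstream of AP-1.

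The authors' deposited table held 1 log2 binding intensity per region and group. Each value stands for a group of 2 libraries, without a spread. No difference below has a replicate error or a test, and the depth is unknown. The values were read as log2(signal + 1), and signal below is that value taken off the log scale. A difference of at least 1 on the log2 scale is called 2-fold. The signals of the groups fall on unequal steps, or on none in Ad-IκBαΔN NS, and their scale may differ. Each group's ranks over all 10740 regions are therefore given as percentiles, which no shift of a group can change. GR binding near a gene does not measure its expression, and the nearest gene need not be the one regulated. Regions were also linked to marker genes, 19 at 7 of 10 epithelial markers and 5 at 4 of 10 markers of other cell types. Binding there does not measure expression either, so the A549 label was not checked against markers here.

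AP-1 is a pair of basic leucine zipper proteins. The JUN proteins (JUN, JUNB, JUND) pair with the FOS proteins (FOS, FOSL1, FOSL2) or with relatives such as ATF3, and the pair binds the motif TGACTCA. FOS and JUNB belong to the immediate early genes, which cells switch on within minutes of a stimulus without new protein synthesis. The small MAF proteins MAFF, MAFG and MAFK have a leucine zipper but no activation domain. As pairs of their own they repress, and with NRF2 or BACH1 as partner they act at antioxidant genes. In airway epithelium, AP-1 and NF-κB drive inflammatory genes together, and activated GR is known to bind near them and to restrain them.

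The sequences of the regions that the results below turn on are printed from hg38, plus strand, 5′ to 3′. They cover the central 200 bases of 6 regions, and 30 bases of the region 20.5 kb upstream of MAFF, which overlaps an untranslated exon of PLA2G6. Capitals mark a match to the κB motif (the binding site of NF-κB, searched as its common degenerate 10-base form on both strands) or to the AP-1 motif TGACTCA on either strand. The first 4 are the regions with a κB match, MAFK is the region with the highest signal, MAFF at 22.6 kb has an AP-1 match at its centre, and FOS is shown as a strong region with neither.
FOSL2, 52.4 kb upstream, chr2:28339952-28340151: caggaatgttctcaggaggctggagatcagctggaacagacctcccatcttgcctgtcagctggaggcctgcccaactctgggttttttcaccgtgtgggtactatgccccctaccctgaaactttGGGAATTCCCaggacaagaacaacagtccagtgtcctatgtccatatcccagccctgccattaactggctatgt
JUNB, 2.24 kb downstream, chr19:12793628-12793827: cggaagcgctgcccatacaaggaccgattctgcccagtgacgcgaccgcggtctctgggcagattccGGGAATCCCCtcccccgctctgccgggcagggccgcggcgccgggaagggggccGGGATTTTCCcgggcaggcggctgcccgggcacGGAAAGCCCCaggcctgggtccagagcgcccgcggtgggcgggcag
FOSL2, 4.39 kb downstream, chr2:28396736-28396935: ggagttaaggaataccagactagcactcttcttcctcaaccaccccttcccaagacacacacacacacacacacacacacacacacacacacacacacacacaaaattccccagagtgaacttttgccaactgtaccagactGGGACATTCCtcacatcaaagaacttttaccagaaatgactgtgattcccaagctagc
MAFF, 20.5 kb upstream, chr22:38180231-38180260: ctgagtaagaGGGAAACTCCCttttgggga
MAFK, 9.96 kb upstream, chr7:1520639-1520838: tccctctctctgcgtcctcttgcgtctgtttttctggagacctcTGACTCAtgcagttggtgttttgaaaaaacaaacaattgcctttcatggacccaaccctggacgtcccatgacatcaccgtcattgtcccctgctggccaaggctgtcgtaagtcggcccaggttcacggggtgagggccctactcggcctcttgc
MAFF, 22.6 kb upstream, chr22:38178109-38178308: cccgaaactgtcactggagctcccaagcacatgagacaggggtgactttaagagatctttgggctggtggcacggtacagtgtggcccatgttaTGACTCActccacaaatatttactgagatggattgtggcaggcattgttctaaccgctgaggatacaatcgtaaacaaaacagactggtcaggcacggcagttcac
FOS, 23.1 kb downstream, chr14:75301871-75302070: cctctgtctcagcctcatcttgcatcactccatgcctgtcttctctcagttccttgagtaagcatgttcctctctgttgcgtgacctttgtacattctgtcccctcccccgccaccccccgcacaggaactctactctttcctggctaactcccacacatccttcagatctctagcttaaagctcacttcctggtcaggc

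κB matches were found in 4 of the 12 regions, against 21.3% of all regions. The JUNB region held 4 separate κB sites, 3 of them inside the printed window, and the other 3 regions held 1 site each, with overlapping matches at the MAFF site counted once. AP-1 matches were found in 2 of the 12 regions, against 22.8% of all regions. No member region held a glucocorticoid response element (GRE), searched as AGAACA and TGTTCT with 3 bases between them and at most 2 mismatches in the 12 fixed bases on both strands, which 14.7% of all regions held. The closest matches had 3 mismatches in 3 member regions, 4 in 5 and 5 in 4, against 30.4%, 42.2% and 12.5% of all regions. AGAACA or TGTTCT without mismatch was present in 4 of the 12 regions, against 41.8% of all regions. No member region held the palindromic cAMP response element, present in 1.26% of all regions, or the MAF half-site TGCTGA followed by CTCA or GTCA, present in 1.61%. That no match was found says only that these letters are not in these windows.

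**Figure D1:**
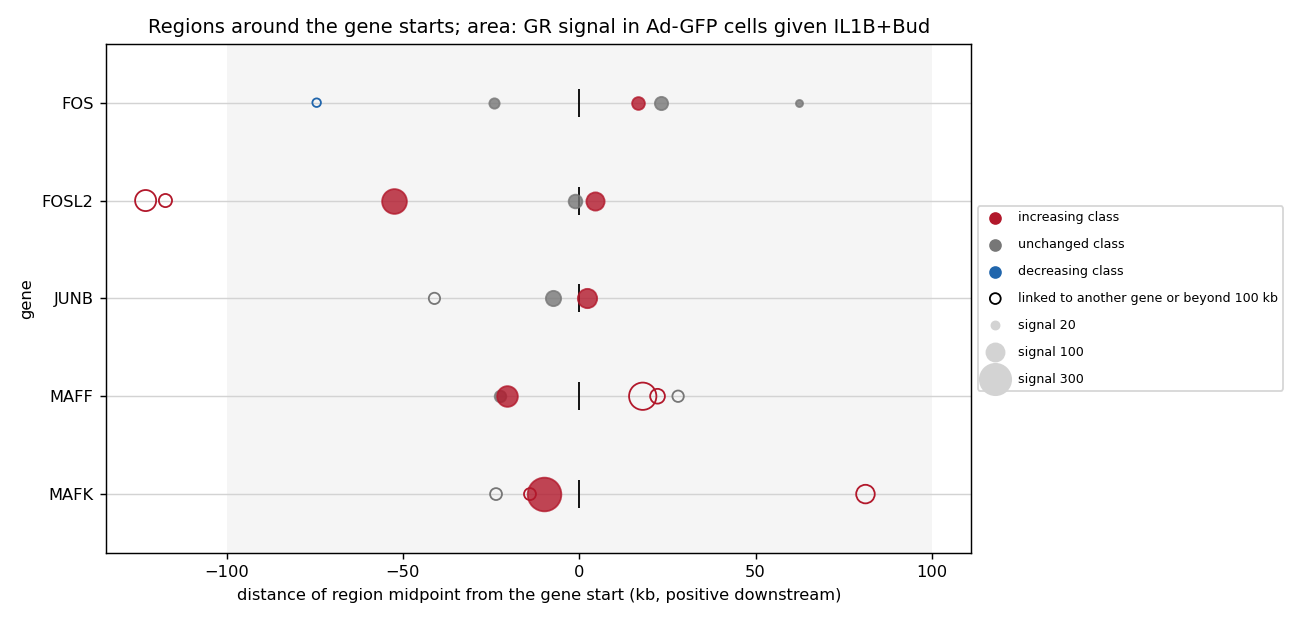
Regions within 100 kb (shaded) of the starts of the 5 genes with member regions, by distance from the gene start in kb, with point area for the GR signal of the Ad-GFP group with IL1B+Bud, and with colour for the authors' class. Filled points are the 12 member regions. Open points lie nearer another gene or, left of the shading at FOSL2, beyond 100 kb. The largest filled point is the MAFK region, with a signal of 348.

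The 12 regions lay 1.26 to 62.3 kb from the gene starts. The authors had placed 6 of them in the class increasing and 6 in the class unchanged, against 40.5% and 31.8% of all regions, and none of the 12 in the class decreasing, which held 27.8% of all regions. The sources used here do not give the definition of these classes. If GR signal with and without IL1B defined them, the difference in Ad-GFP between the classes follows from the choice. The values in Ad-IκBαΔN cells and the motifs are described beside the class for that reason.

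**Figure D2:**
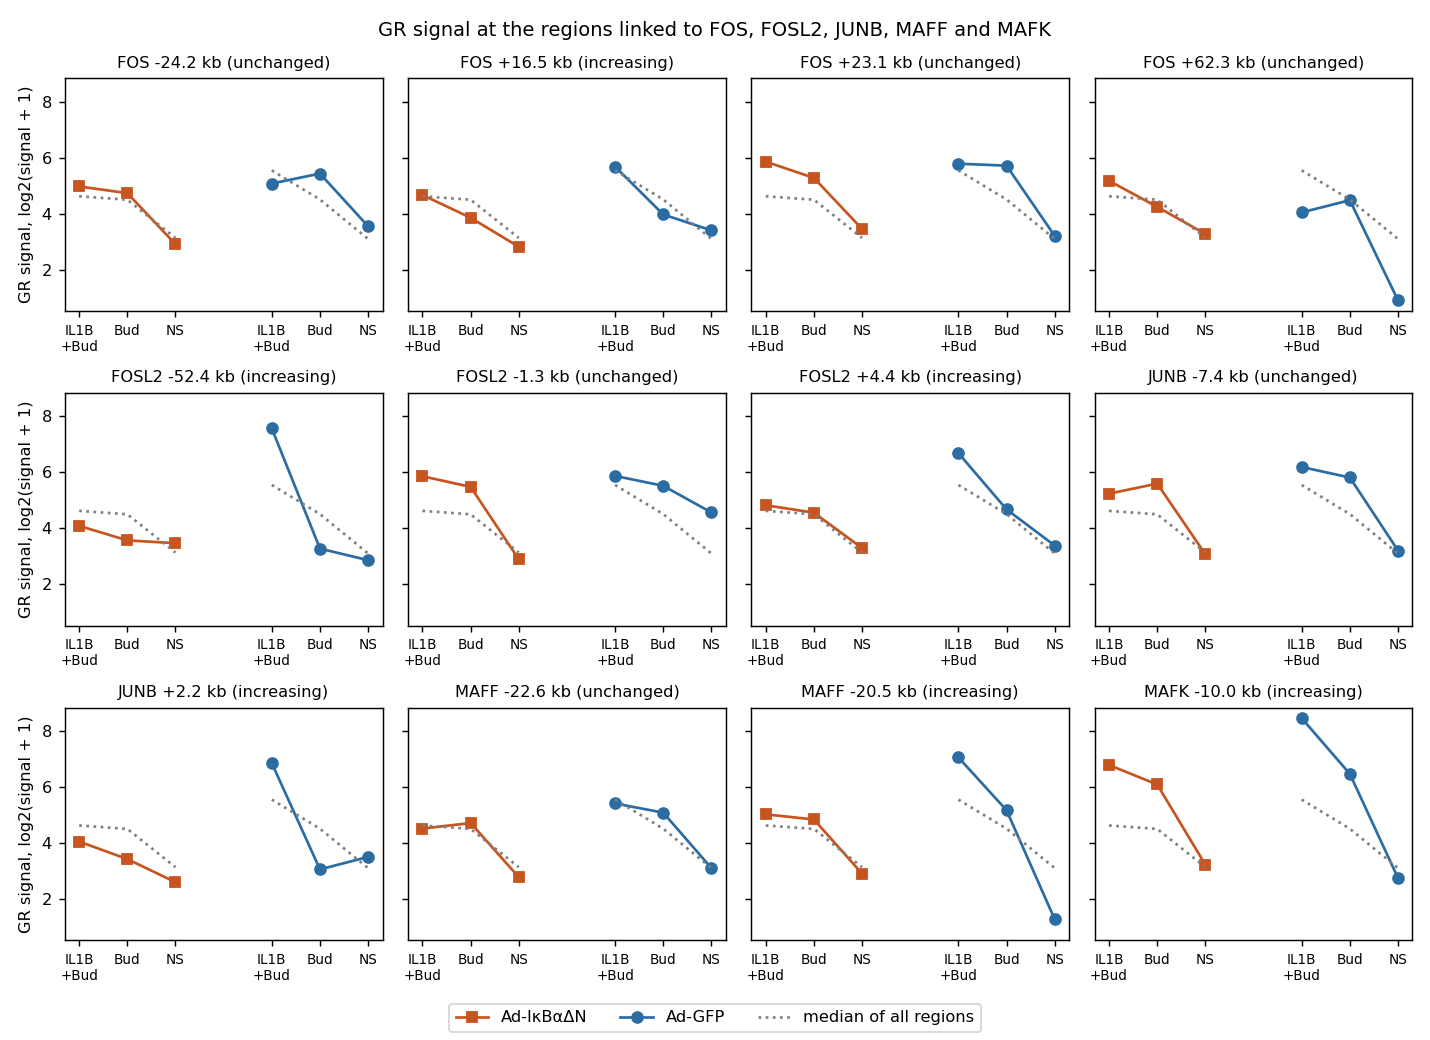
GR signal as log2(signal + 1) at the 12 member regions with IL1B+Bud, Bud and NS, in Ad-IκBαΔN (squares) and Ad-GFP (circles) cells, 1 authors' value each, with the median of all regions of each group dotted. The lines of FOSL2 at 52.4 kb and JUNB at 2.24 kb are high in 1 group, Ad-GFP with IL1B+Bud, at 188 and 114 on the signal scale.

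FOS, the founding member of the AP-1 partners of JUN, had regions on both sides. In an intron of a long non-coding RNA 24.2 kb upstream (chromosome 14, 75254382 to 75254781), the signal was 30.4 with IL1B+Bud, 25.6 with Bud and 6.53 untreated in Ad-IκBαΔN cells. In Ad-GFP cells it was 32.7, 42.1 and 10.7 in the same order. On the deposited scale both budesonide groups of each virus stood above the untreated cells. By rank the percentiles were 64.0, 58.4 and 20.8 in Ad-IκBαΔN and 31.1, 77.0 and 78.9 in Ad-GFP, in the same order. IL1B+Bud minus Bud in Ad-GFP ran from -1.86 to -0.32 on the log2 scale over all settings. The region 23.1 kb downstream, in intergenic sequence (75301771 to 75302170), was the strongest of the 4, with 56.9, 37.8 and 9.97 in Ad-IκBαΔN cells and 54.1, 51.5 and 8.25 in Ad-GFP cells. Its signal with IL1B+Bud differed by 0.07 on the log2 scale between the viruses as deposited (Ad-IκBαΔN minus Ad-GFP). Over all settings that difference ran from 0.07 to 1.03.

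The other FOS regions went in different directions. In an exon of LINC01220, 16.5 kb downstream (75295169 to 75295568), the signal was 24.4, 13.5 and 6.07 in Ad-IκBαΔN cells and 50.2, 14.7 and 9.60 in Ad-GFP cells. It was the FOS region of the increasing class, with a log2 difference between IL1B+Bud and Bud of 0.81 in Ad-IκBαΔN and 1.71 in Ad-GFP. The region 62.3 kb downstream (75340969 to 75341368), in an exon of another long non-coding RNA, had 35.1, 18.0 and 8.69 in Ad-IκBαΔN cells and 15.5, 21.3 and 0.88 in Ad-GFP cells. It was the weakest member with IL1B+Bud in Ad-GFP, at percentile 4.81 of all regions, and the one member that was at least 2-fold higher in Ad-IκBαΔN in that treatment. Its Bud response in Ad-GFP, 3.57 on the log2 scale, rests on the untreated signal of 0.88, and in Ad-IκBαΔN it was 0.97.

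FOSL2, which encodes a more slowly induced and longer-lived FOS protein, held the widest contrast. At the intergenic region 52.4 kb upstream (chromosome 2, 28339852 to 28340251), the signal was 16.0 with IL1B+Bud, 10.9 with Bud and 10.1 untreated in Ad-IκBαΔN cells. In Ad-GFP cells it was 188, 8.69 and 6.28. On the deposited scale this last virus with IL1B+Bud thus stood far above the other 5 groups. There, budesonide alone left the region near the untreated level in both viruses. By rank, Bud lay below NS, at percentiles 29.1 and 89.7 in Ad-IκBαΔN and 29.9 and 35.3 in Ad-GFP. Over all settings Bud minus NS ran from -1.77 to 0.10 in Ad-IκBαΔN and from -1.51 to 0.41 in Ad-GFP. IL1B+Bud against Bud was 19.5-fold higher in Ad-GFP (log2 4.29, percentile 95.4 of all regions) and 1.43-fold in Ad-IκBαΔN (0.52, percentile 66.5). The κB match printed above lay 31 bp from the centre of this region.

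A second FOSL2 region with a κB match lay in an intron of the gene, 4.39 kb downstream (28396636 to 28397035), where an exon of a long non-coding RNA overlaps. Its signal was 27.3, 22.5 and 8.82 in Ad-IκBαΔN cells and 102, 24.5 and 9.45 in Ad-GFP cells. With budesonide alone its signal was above that of the upstream region in each virus, and the Ad-GFP group with IL1B+Bud stood higher still. By rank, Bud lay below NS in both viruses, at percentiles 52.0 and 72.3 in Ad-IκBαΔN and 55.1 and 68.9 in Ad-GFP. The region 1.26 kb upstream of the start (28390988 to 28391387), in an intron of FOSL2-AS1, had 57.0, 43.5 and 6.44 in Ad-IκBαΔN cells and 57.5, 44.7 and 22.7 in Ad-GFP cells. On the deposited scale the viruses were alike there except in untreated cells. In those the log2 difference was -1.67 and the Ad-GFP value lay at percentile 99.6 of its group. With IL1B+Bud the difference between the viruses ran from -0.01 to 0.95 over all settings.

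JUNB, a JUN protein that often opposes JUN at shared targets, had a pair of contrasting regions. The region 2.24 kb downstream of the start begins 213 bp past the end of the gene, in an intron of HOOK2 (chromosome 19, 12793528 to 12793927). Its signal was 15.5 with IL1B+Bud, 9.73 with Bud and 5.06 untreated in Ad-IκBαΔN cells and 114, 7.32 and 10.3 in Ad-GFP cells. As at FOSL2, one group was high. IL1B+Bud against Bud was 13.8-fold higher in Ad-GFP (log2 3.79, percentile 90.7) and 1.54-fold in Ad-IκBαΔN (0.62, percentile 73.1). This region held the 4 κB sites and had a GC content of 75.25%, above that of 99.7% of all regions. The region 7.36 kb upstream (12783931 to 12784330), also in HOOK2, had 36.7, 47.3 and 7.42 in Ad-IκBαΔN cells and 71.8, 55.2 and 8.24 in Ad-GFP cells. Both of its budesonide groups were well above the untreated one in each virus, and it held no κB match. By transcript starts it lies nearer to HOOK2, 5.67 kb away, so its link to JUNB also rests on gene starts alone.

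MAFF, the small MAF gene best known as induced by stress and cytokines, had 2 neighbouring regions inside PLA2G6, a phospholipase gene. At the region 20.5 kb upstream (chromosome 22, 38180087 to 38180486), the signal was 31.4 with IL1B+Bud, 27.6 with Bud and 6.49 untreated in Ad-IκBαΔN cells and 131, 34.8 and 1.42 in Ad-GFP cells. It overlaps an exon of PLA2G6 and lies 0.12 kb from the start of a PLA2G6 transcript, so its link to MAFF rests on gene starts alone. IL1B+Bud against Bud was 3.69-fold higher in Ad-GFP and 1.13-fold in Ad-IκBαΔN. The neighbour 22.6 kb upstream (38178009 to 38178408), in a PLA2G6 intron and with an AP-1 match 2.5 bp from its centre, had 21.8, 25.2 and 5.87 in Ad-IκBαΔN cells and 41.4, 32.8 and 7.59 in Ad-GFP cells. The 2 neighbours had like signal with Bud in each virus, and one of them stood apart with IL1B+Bud in Ad-GFP.

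MAFK encodes a small MAF protein that, like MAFF and MAFG, can partner NRF2 and BACH1. The gene had the strongest member region, in intergenic sequence 9.96 kb upstream (chromosome 7, 1520539 to 1520938). The signal was 109 with IL1B+Bud, 66.8 with Bud and 8.32 untreated in Ad-IκBαΔN cells and 348, 87.1 and 5.71 in Ad-GFP cells. It ranked first of the 12 in all 4 treated groups, at percentiles 96.8, 91.1, 99.2 and 92.9 (IL1B+Bud and Bud of Ad-IκBαΔN, then of Ad-GFP). IL1B+Bud against Bud was 3.96-fold higher in Ad-GFP and 1.62-fold in Ad-IκBαΔN. The region held an AP-1 match 52.5 bp from its centre and no κB match. Ad-IκBαΔN differed from Ad-GFP by -1.67 on the log2 scale with IL1B+Bud and by -0.38 with Bud.

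The 5 genes without a member region were not all without GR binding in their neighbourhood. JUN, the main partner of FOS, had its nearest region 146 kb upstream, of the decreasing class, with 47.7, 33.2 and 5.35 in Ad-IκBαΔN cells and 28.0, 36.9 and 5.04 in Ad-GFP cells. FOSL1 had 1 region 12.5 kb upstream that lay nearer to C11orf68, with 13.0, 13.4 and 10.3 in Ad-IκBαΔN cells and 41.1, 6.66 and 8.21 in Ad-GFP cells. JUND had 3 regions 83.5 to 98.6 kb upstream that lay nearer to GDF15, and ATF3, a stress-induced repressor, had 4 regions 76.7 to 88.0 kb upstream that lay nearer to NENF. Of these, the ATF3 region at 76.7 kb had 19.9, 16.3 and 8.08 in Ad-IκBαΔN cells and 124, 14.7 and 15.8 in Ad-GFP cells. MAFG had none within 100 kb and its nearest region was 207 kb away. Just outside the limit of the rule lay 2 regions upstream of FOSL2, at 117 and 123 kb, and the member farthest inside it was the FOS region at 62.3 kb. The FOSL2 region at 117 kb had 14.5, 11.0 and 10.6 in Ad-IκBαΔN cells and 53.0, 5.89 and 8.04 in Ad-GFP cells.

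**Figure D3:**
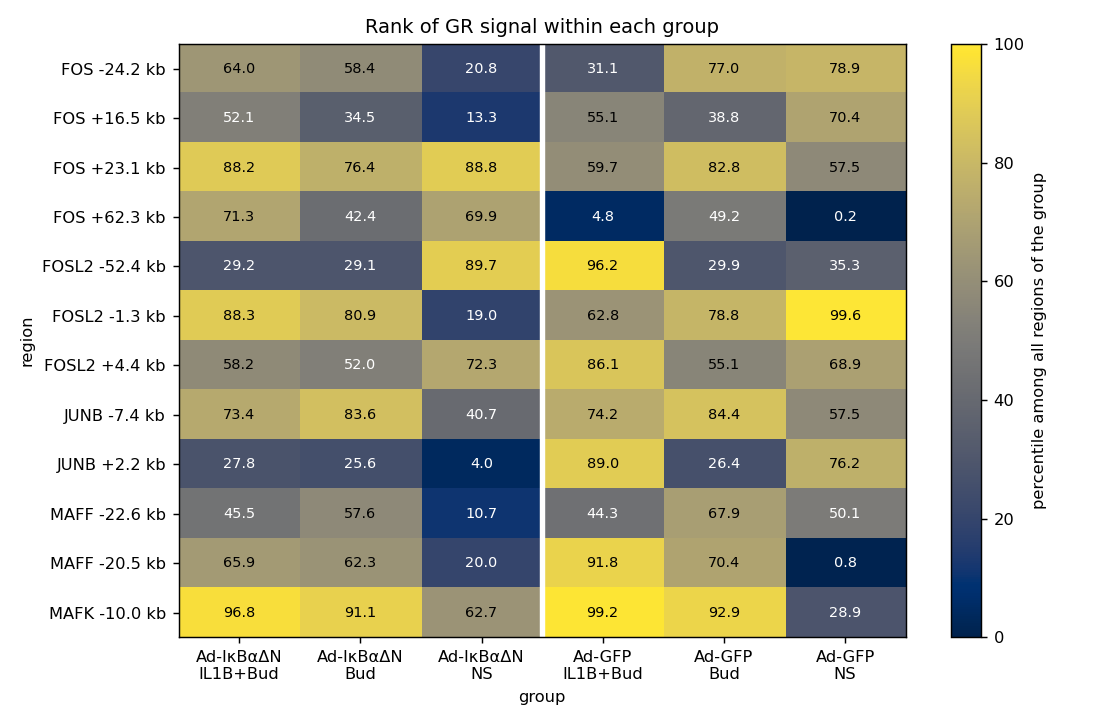
Percentile of each member region's GR signal among all 10740 regions of the same group, for IL1B+Bud, Bud and NS of Ad-IκBαΔN (left 3 columns) and Ad-GFP (right 3 columns), with the value in each cell. The FOSL2 region at 52.4 kb stood at 29.2, 29.1 and 89.7 with IL1B+Bud, Bud and NS in Ad-IκBαΔN, and at 96.2, 29.9 and 35.3 in Ad-GFP.

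Budesonide alone gave GR signal at most member regions, in both viruses. Bud was at least 2-fold above NS at 9 of 12 regions in Ad-IκBαΔN, against 59.3% of all regions, and at 8 of 12 in Ad-GFP, against 57.9%. No member was 2-fold lower, against 1.06% and 8.14% of all regions. The median log2 difference over the 12 was 1.82 in Ad-IκBαΔN and 1.93 in Ad-GFP, and over all regions it was 1.37 in each. The members' counts were near those of the whole table. The regions with the largest responses in Ad-GFP were those of MAFF at 20.5 kb (3.89), MAFK (3.71) and FOS at 62.3 kb (3.57), of which MAFF and FOS rest on untreated signals of 1.42 and 0.88. In Ad-IκBαΔN the largest were MAFK (2.86), FOSL2 at 1.26 kb (2.58) and JUNB at 7.36 kb (2.52). The JUNB region downstream of the gene was the one member lower with Bud than NS in Ad-GFP, at -0.44, and stood at 0.82 in Ad-IκBαΔN. After the groups were set to a common median of the unchanged class, 1 of 12 was 2-fold higher and 2 lower in Ad-IκBαΔN, against 10.2% and 37.1% of all regions. In Ad-GFP 3 were higher and 3 lower, against 14.4% and 40.7%.

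With the inhibitor and budesonide alone, GR signal was close to that of the control virus. None of the 12 regions differed by 2-fold between Ad-IκBαΔN and Ad-GFP in Bud, where 4.02% of all regions were higher and 0.0186% lower. The differences ran between -0.70 and 0.37, with a median of -0.23 against 0.02 over all regions. Their median percentile among all regions was 16.8, so the members lay low in rank though the differences were small. The lowest was at the FOS region 24.2 kb upstream, at percentile 0.126 of all regions. In untreated cells 2 of 12 regions were 2-fold higher in Ad-IκBαΔN and 1 lower, against 7.21% and 2.77% of all regions. These were FOS at 62.3 kb (2.37), MAFF at 20.5 kb (1.63) and FOSL2 at 1.26 kb (-1.67), and all other members lay within 2-fold.

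Adding IL1B to budesonide separated the member regions by virus. In Ad-IκBαΔN cells none of the 12 regions was 2-fold higher or lower, against 9.65% and 0.94% of all regions, and the differences ran between -0.36 and 0.93. In Ad-GFP cells 6 of 12 were 2-fold higher, against 48.9% of all regions, and none of the 12 was 2-fold lower, against 6.07%. The 6 were the FOSL2 regions at 52.4 and 4.39 kb (4.29 and 2.01), JUNB at 2.24 kb (3.79), MAFK (1.99), MAFF at 20.5 kb (1.89) and FOS at 16.5 kb (1.71). They are the 6 regions of the authors' increasing class, so their count is not independent of that class. The other 6 ran from -0.43 to 0.37. The median over the 12 was 0.45 in Ad-IκBαΔN and 1.04 in Ad-GFP, and over all regions it was 0.26 and 0.92. The members as a set therefore sat near the middle of all regions.

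The size of these differences in Ad-GFP depends on the scale of the groups, while their order does not under a shift. When the signal of each group was divided by the step on which its values fall (3 for IL1B+Bud and 1 for Bud in Ad-GFP), 2 of 12 regions were 2-fold higher and 6 lower, against 30.3% and 43.7% of all regions, whose median was then -0.61. The 2 were FOSL2 at 52.4 kb and JUNB at 2.24 kb, whose log2 differences stayed between 2.29 and 4.29 and between 1.81 and 3.79 under all scalings tried. Those of FOSL2 at 4.39 kb, MAFK, MAFF at 20.5 kb and FOS at 16.5 kb were above 0 under all of them, with lowest values of 0.45, 0.41, 0.32 and 0.18.

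**Figure D4:**
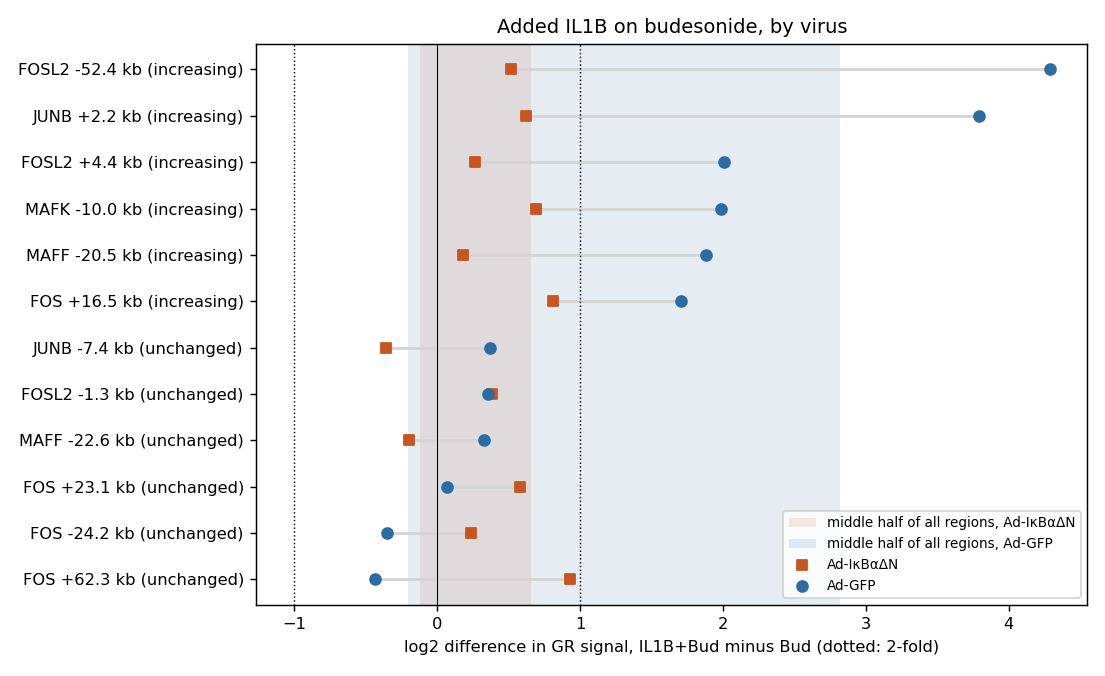
IL1B+Bud minus Bud on the log2 scale at each member region, in Ad-IκBαΔN (squares) and Ad-GFP (circles), 1 authors' value each, with bands from the lower to the upper quartile of all regions and dotted lines at 2-fold. The top 6 regions are of the increasing class and have circles between 1.71 and 4.29 and squares between 0.18 and 0.81.

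Set directly against each other in IL1B+Bud, Ad-IκBαΔN cells had at least 2-fold lower GR signal than Ad-GFP cells at 6 of 12 regions, against 46.5% of all regions, and 2-fold higher signal at 1 of 12, against 5.97%. The lowest were FOSL2 at 52.4 kb and JUNB at 2.24 kb, 11.1-fold and 6.95-fold lower. MAFF at 20.5 kb, FOSL2 at 4.39 kb, MAFK and FOS at 16.5 kb followed, at 4.09-fold, 3.63-fold, 3.18-fold and 2.02-fold lower. These 6 are again the regions of the increasing class. This contrast and the response below reuse the Ad-GFP value with IL1B+Bud that gave the 2-fold rises over Bud. Their counts are therefore not independent of those rises or of the class. The folds between the viruses also depend on the scale of the groups. With equal group medians 3 of 12 were 2-fold lower, with the steps divided out 3 and with quantile normalization 2, against 24.4%, 22.4% and 24.3% of all regions. Over all settings the log2 differences of FOSL2 at 52.4 kb and JUNB at 2.24 kb came no nearer to 0 than -2.31 and -1.76. Those of MAFF at 20.5 kb, FOSL2 at 4.39 kb, MAFK and FOS at 16.5 kb came to -0.93, -0.78, -0.66 and -0.04. JUNB at 7.36 kb and MAFF at 22.6 kb stood at -0.95 and -0.90 as deposited, just short of 2-fold. Over all settings they came up to 0.03 and 0.07. FOS at 24.2 kb, FOSL2 at 1.26 kb and FOS at 23.1 kb stood between -0.11 and 0.07 as deposited. Their highest values over all settings were 0.87, 0.95 and 1.03. This contrast changed sign under some setting at 4 of 12 regions, JUNB at 7.36, MAFF at 22.6, FOS at 24.2 and FOSL2 at 1.26 kb. The response to added IL1B differed between the viruses by at least 2-fold in the lower direction (Ad-IκBαΔN minus Ad-GFP) at 5 of 12 regions, against 47.4% of all regions, and in the higher direction at 1, against 7.98%. That one was FOS at 62.3 kb, at 1.36. With equal group medians 2 of 12 were lower and 3 higher, against 32.0% and 28.0% of all regions.

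The 4 regions with a κB match were the 4 with the lowest values of Ad-IκBαΔN against Ad-GFP in IL1B+Bud. Their median was -2.41, and the 8 others ran from -1.67 to 1.13. All 4 were of the increasing class, in which the other 2 members, MAFK and FOS at 16.5 kb, had no κB match, and no member of the unchanged class had one. In these 12 regions the motif and the class can therefore hardly be told apart. Over the whole table, 1753 regions of the increasing class with a κB match had a median of -2.20 and 2592 without one had -1.89. In the unchanged class, 403 with a match had -1.36 and 3008 without one had -0.35. With budesonide alone, signal in each virus was lower at the JUNB and upstream FOSL2 regions than at the MAFF and intronic FOSL2 regions. The 4 thus differed in their starting level.

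**Figure D5:**
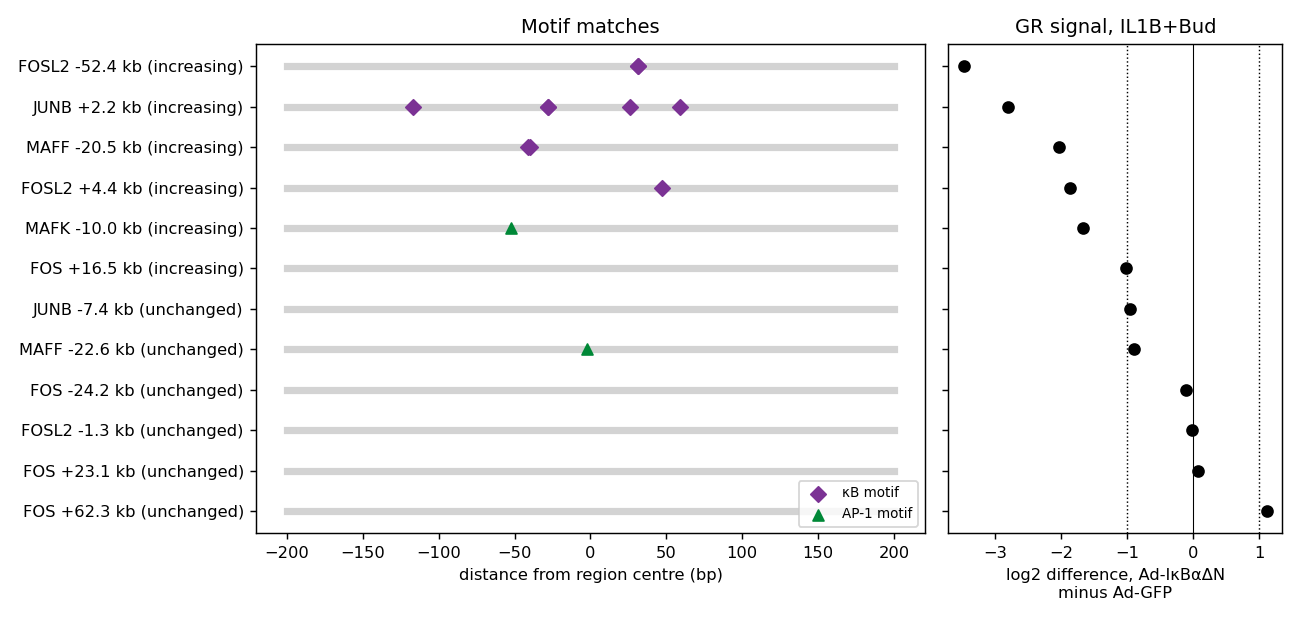
Left, positions of κB (diamonds) and AP-1 (triangles) matches in the 12 member regions by distance from the region centre in bp. Right, log2 difference in GR signal between Ad-IκBαΔN and Ad-GFP with IL1B+Bud, lowest at the top, 1 authors' value each. The 4 regions with diamonds lie between -3.48 and -1.86.

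On the deposited scale, IL1B+Bud was above untreated cells at the member regions about as often as over the whole table in Ad-GFP. In Ad-IκBαΔN it was above them more often than over the whole table. It was at least 2-fold above NS at 11 of 12 regions in Ad-IκBαΔN, against 69.1% of all regions, and at 12 of 12 in Ad-GFP, against 93.7%. It was 2-fold lower at 0 of 12 in each virus, against 0.0466% of all regions in Ad-IκBαΔN and 0.0% in Ad-GFP. These counts rest on the deposited scale. With equal group medians 2 of 12 were 2-fold higher in Ad-IκBαΔN and 3 in Ad-GFP, against 16.7% and 19.3% of all regions. With the steps divided out 9 and 8 were higher, against 46.9% and 48.7%, and FOSL2 at 1.26 kb in Ad-GFP stood at -0.23. The 1 exception was FOSL2 at 52.4 kb in Ad-IκBαΔN, at 0.62. MAFF at 20.5 kb and MAFK had the largest values in Ad-GFP, at 5.77 and 5.70, or percentiles 99.7 and 99.6, the first again on a low untreated signal. In Ad-IκBαΔN, MAFK led with 3.56.

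Other genes of the pathway were counted from lists of known partners, regulators and targets, linked to regions by the same rule. Of 22 other basic leucine zipper genes, 9 had 17 regions, of which 3 were 2-fold higher with IL1B+Bud than Bud in Ad-IκBαΔN and 8 in Ad-GFP, against 9.65% and 48.9% of all regions, with medians of 0.27 and 0.45. Among them BATF, an AP-1 partner of JUN proteins, had a region 13.6 kb downstream with 331, 274 and 8.87 in Ad-IκBαΔN cells and 205, 334 and 9.15 in Ad-GFP cells, stronger with Bud than any member region. At BACH1, a partner of the small MAF proteins, the region 25.1 kb upstream had 17.3, 7.07 and 8.59 in Ad-IκBαΔN cells and 73.5, 4.26 and 2.58 in Ad-GFP cells. The start of CREB1 had 23.4, 6.60 and 8.81 in Ad-IκBαΔN cells and 113, 6.22 and 8.63 in Ad-GFP cells. Kinases and regulators of AP-1 had 15 of 28 genes with 56 regions, of which 4 were higher and 1 lower in Ad-IκBαΔN, and 35 higher and 5 lower in Ad-GFP. AP-1 and NRF2 target genes had 14 of 25 genes with 31 regions, of which 4 and 20 were higher. Other immediate early genes had 10 of 18 genes with 30 regions, of which 4 and 22 were higher. Outside the kinases and regulators, no region of these lists was 2-fold lower in this contrast, against 0.94% and 6.07% of all regions. The Ad-GFP medians of the regulators, the targets and the immediate early genes were 2.66, 2.44 and 2.65, against 1.04 for the member regions and 0.92 for all regions.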

How the data were processed

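Per the submitters' processing notes, the tools included Bowtie2 2.4.4 for GRCh38/hg38, MACS2 2.2.7.1, DiffBind 3.2, SAMtools, FastQC 0.10.1 and bcl2fastq. The authors deposited 1 log2 GR intensity per region and group, and which tool made it and how the 2 libraries were combined are not given in the sources used here. That table writes Ad-IκBα for the Ad-IκBαΔN of the labels. The total depth and the spread between libraries are therefore unknown. Libraries for RELA and input were not used here.

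The member genes, lists and alternatives were chosen with earlier results of these data known. Signal was recovered as 2 to the power of the value, minus 1. Multiplied by the region width of 400 bp, signals fell on whole steps (tolerance 1e-04) in 5 groups, for all regions in 4 of them and 99.99% in Ad-GFP NS. Ad-IκBαΔN NS had no step, and its log2 values had a standard deviation of 0.30 over regions, against 0.63 in Ad-GFP NS. Dividing out the steps left that group as deposited. Differences against NS in Ad-IκBαΔN, and between the viruses in NS, carry this limit. The steps were unequal, so the scale of the groups may differ. A limma test had been planned for separate libraries, and with 1 value per group none could be run. Regions were linked to gene starts and searched for motifs in Python 3.11.15 (numpy 2.4.6, pandas 2.3.3), and the linking and counting were tested on simulated data. All 10740 regions lay inside hg38, and the share with a GRE match was 14.7%, and 2.63% for windows 5 kb to the side. Every member region was named. For the region of each gene with the highest value, the 3 genes with the highest Pearson's r were named among those in the closest 1% by distance over the 6 values. The 3 list genes given as examples were chosen after their values were seen. Alternatives were 4 other scalings, another pseudocount, a filter on low regions, a 50 kb limit and, added after seeing the data, transcript starts.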

Additional observations from a re-analysis of the deposited data

Results flagged for a closer look

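Some member regions moved one way in Ad-IκBαΔN cells and the opposite way in Ad-GFP cells. How often other regions did so was not counted, so the cases below describe single regions only. Each case rests on 1 authors' value per group, and the difference was not tested. At the JUNB region 2.24 kb downstream, Bud against NS was 0.82 in Ad-IκBαΔN and -0.44 in Ad-GFP on the log2 scale, a difference of 1.27. At the FOS region 62.3 kb downstream, IL1B+Bud against Bud was 0.93 and -0.43, a difference of 1.36. At the FOS region 24.2 kb upstream the same contrast was 0.24 and -0.35, a difference of 0.59. JUNB at 7.36 kb upstream and MAFF at 22.6 kb upstream went the other way, with -0.36 in Ad-IκBαΔN and 0.37 in Ad-GFP (difference -0.73) at JUNB, and -0.20 and 0.33 (difference -0.53) at MAFF. Of these single values none reached 2-fold. The opposite signs depend on the scale of the groups. Settings that only change which regions are members repeat the deposited values, so they could not change a sign. FOS at 62.3 kb kept opposite signs under every scaling and with a pseudocount of 5. FOS at 24.2 kb lost them with the steps divided out. JUNB at 2.24 kb lost them under equal medians and the unchanged class, and the divided steps left its values as deposited. JUNB at 7.36 kb and MAFF at 22.6 kb kept them with a pseudocount of 5 and lost them under every other scaling.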

How the results depend on the processing

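No paired analysis was possible because the table holds 1 authors' value per region and group, and no library was left out. Counts of 2-fold members moved mostly with the scaling, and shares of all regions under the same setting stand in brackets. No member was 2-fold different between the viruses in Bud, or between IL1B+Bud and Bud in Ad-IκBαΔN, under any setting run. With all group medians made equal, Bud against NS was higher at 3 and lower at 1 in Ad-IκBαΔN (18.9% and 27.2%) and higher at 5 and lower at 1 in Ad-GFP (24.3% and 32.6%). IL1B+Bud against Bud in Ad-GFP was higher at 2 and lower at 2 (37.0% and 32.1%), and against NS higher at 2 in Ad-IκBαΔN (16.7%) and higher at 3 and lower at 1 in Ad-GFP (19.3% and 14.5%). Ad-IκBαΔN was lower than Ad-GFP in IL1B+Bud at 3 (24.4%), and its response to added IL1B was higher at 3 and lower at 2 (28.0% and 32.0%). With the medians of the unchanged class made equal, Bud against NS was higher at 1 and lower at 2 in Ad-IκBαΔN (10.2% and 37.1%) and higher at 3 and lower at 3 in Ad-GFP (14.4% and 40.7%). IL1B+Bud against NS was then higher at 2 and lower at 1 (9.34% and 28.3%) and higher at 3 and lower at 1 (19.7% and 14.0%).

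With quantile normalization, Bud against NS was higher at 5 and lower at 1 in Ad-IκBαΔN (21.5% and 21.8%) and higher at 3 and lower at 2 in Ad-GFP (22.0% and 22.5%), and IL1B+Bud against NS higher at 6 and lower at 1 (20.7% and 21.2%) and higher at 3 and lower at 2 (19.9% each). IL1B+Bud against Bud in Ad-GFP was higher at 3 and lower at 2 (25.5% and 26.9%). Ad-IκBαΔN was lower than Ad-GFP in IL1B+Bud at 2 (24.3%), in NS higher at 3 and lower at 5 (19.3% and 19.7%), and its response higher at 3 and lower at 2 (24.8% each). With the steps divided out, IL1B+Bud against Bud in Ad-GFP was higher at 2 and lower at 6 (30.3% and 43.7%), Ad-IκBαΔN against Ad-GFP in IL1B+Bud lower at 3 and higher at 2 (22.4% and 25.7%), and the response higher at 3 and lower at 2 (28.5% and 30.6%). In IL1B+Bud, 0 were higher in Ad-IκBαΔN with a pseudocount of 5, the 50 kb limit or the filter on low regions, 0 had a higher response with either of those last settings, and in NS each of these and the transcript starts left 1. Transcript starts, which keep 9 of the 12 regions, left 6 higher with Bud in Ad-IκBαΔN and 5 in Ad-GFP. The cause was not tested, beyond the fewer regions that the last 3 settings keep. IL1B+Bud against NS and the difference in response were run under these settings after seeing the data.

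Bud against NS changed sign under some setting at 7 of 12 regions in Ad-IκBαΔN and 5 of 12 in Ad-GFP. Those that were 2-fold as deposited follow. FOSL2 at 4.39 kb gave -0.10 (equal medians), -0.58 (unchanged class) and -0.46 (quantile) in Ad-IκBαΔN and -0.12, -0.63 and -0.31 in Ad-GFP. FOS at 24.2 kb gave -0.022 in Ad-IκBαΔN and -0.045 in Ad-GFP (unchanged class) and -0.065 in Ad-GFP (quantile). In Ad-IκBαΔN, FOS at 16.5 kb gave -0.33 (equal medians) and -0.81 (unchanged class), and FOS at 23.1 kb -0.024 (unchanged class) and -0.47 (quantile). IL1B+Bud against NS changed sign at 7 of 12 in Ad-IκBαΔN and 4 of 12 in Ad-GFP. In Ad-IκBαΔN it was -0.038 at JUNB 2.24 kb (equal medians), then -0.49 at that region, -0.092 and -0.041 at FOS 16.5 and 62.3 kb, -0.41 at FOSL2 4.39 kb and -0.21 at MAFF 22.6 kb (unchanged class), and -0.027 at FOS 23.1 kb and -0.32 at FOSL2 4.39 kb (quantile). In Ad-GFP, under equal medians, the unchanged class and quantiles in turn, it was -0.92, -0.90 and -1.26 at FOS 24.2 kb, -0.17, -0.15 and -0.34 at FOS 16.5 kb, -1.14, -1.12 and -2.48 at FOSL2 1.26 kb, and -0.14, -0.12 and -0.14 at MAFF 22.6 kb. With the steps divided out it was -0.23 at FOSL2 1.26 kb. The median over all regions of IL1B+Bud minus Bud in Ad-GFP was 0.92 as deposited and -0.12, 0.42, -0.13 and -0.61 under equal medians, the unchanged class, quantiles and divided steps.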

Other observations

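Several regions near MAFF and MAFK lay closer to another gene and so were not members. The region 18.0 kb downstream of the MAFF start, nearer to PLA2G6, had a signal of 21.8 with IL1B+Bud, 8.81 with Bud and 4.81 untreated in Ad-IκBαΔN cells, and 229, 8.62 and 8.88 in Ad-GFP cells. Its log2 difference between IL1B+Bud and Bud was 1.21 in Ad-IκBαΔN and 4.58 in Ad-GFP, above that of any MAFF member. The region 81.1 kb downstream of MAFK, nearer to PSMG3, had 18.5, 8.25 and 6.60 in Ad-IκBαΔN cells and 106, 6.23 and 12.5 in Ad-GFP cells. At JUND, a region 96.2 kb upstream that lay nearer to GDF15 had 9.45, 4.89 and 7.62 in Ad-IκBαΔN cells and 119, 3.46 and 8.09 in Ad-GFP cells. In the other direction, the region 41.1 kb upstream of JUNB, nearer to BEST2, had 90.5, 72.0 and 4.94 in Ad-IκBαΔN cells and 39.1, 80.3 and 5.72 in Ad-GFP cells.

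Across the 6 groups, the profiles most like those of the lead regions were sought among 4256 other genes by Pearson's r, as a description over 6 values that share their libraries. The MAFK region was most like those of ARHGAP26, TBXAS1 and UBAP1, the upstream FOSL2 region like those of LRMDA, HS3ST3B1 and GOLGA7B, and the downstream JUNB region like those of WFDC3, H3C15 and MLKL. For MAFF at 20.5 kb they were SHANK2, MYBPC1 and ZC3H15, and for FOS at 23.1 kb CFAP100, ELK4 and FMO2.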
